A study of Mus musculus with 14 samples.

Results

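Carbonic anhydrases are zinc enzymes that turn carbon dioxide and water into bicarbonate and a proton and back again. In the intestine they supply bicarbonate and protons to the exchangers that neutralise acid, secrete fluid and absorb salt. The isoforms differ mainly in where they sit: Car4 is held on the outer face of the apical membrane by a lipid anchor, Car9, Car12 and Car14 span the membrane, Car1, Car2, Car7 and Car13 are cytosolic, Car5b is mitochondrial, and Car8 is a family member that has lost catalytic activity.

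Of 10 listed carbonic anhydrase genes, 9 had a probe set with 1 gene symbol in the deposited table, and these 9 had 10 probe sets, since Car9 had 2. They were taken from 22180 genes with such a probe set. Car14 was covered by a probe set that also names Aph1a and was not analysed here. The genes were chosen as a family with results of these data known, and Car4 leads the list because of its difference between genotypes, so every genotype difference of a member below is a description.

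The arrays measured jejunal RNA from 7 mice with LRH-1 K289R and 7 mice with LRH-1 WT. LRH-1, the product of Nr5a2, is a nuclear receptor found in intestine, liver and pancreas, and K289R puts arginine in place of a lysine that is known as an acceptor site for the modifier SUMO. All mice were 19 to 21 weeks old, ate freely and were killed at 7 am, and each array holds 1 mouse. The labels give neither sex, litter nor the background strain, and the altered receptor is not limited by them to 1 cell type, so the whole-tissue values mix all cells of the gut wall.

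The series title also says hepatic, and the samples are treated as jejunum, as labelled. Enterocyte genes such as Alpi, Vil1 and Apoa4 all passed the filter on dim genes, and 18 of 18 listed mature enterocyte genes did. Passing this filter does not tell tissues apart. Of the genes with a probe set, 13 of 14 colon genes and 6 of 8 pancreatic acinar genes passed it too. Array medians were 168.1 to 174.0 intensity units, arrays correlated with r of 0.987 or more, and 18010 genes entered the genotype fit, where the typical (median) standard error of a log2 difference was 0.067. Fabp6, the ileal bile acid binding protein, set 4 arrays apart. Its log2 intensity was 10.72 and 9.91 on K289R replicates 2 and 7 and 12.52 and 9.18 on WT replicates 1 and 6, and between 6.09 and 6.64 on the other 10 arrays. Values without these arrays are given beside the genotype differences and correlations they touch.

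Levels are log2 intensities, differences are K289R minus WT on that scale, and a level of one probe set cannot be set against that of another. The 250 bases before the start of Car4, the member with the largest genotype difference in size, are printed because LRH-1 is a DNA-binding receptor. RefSeq (GRCm38.p6) places them at chr11:84957504-84957753 on the plus strand, and they run 5′ to 3′. Capitals mark each CAAGGT.

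Car4: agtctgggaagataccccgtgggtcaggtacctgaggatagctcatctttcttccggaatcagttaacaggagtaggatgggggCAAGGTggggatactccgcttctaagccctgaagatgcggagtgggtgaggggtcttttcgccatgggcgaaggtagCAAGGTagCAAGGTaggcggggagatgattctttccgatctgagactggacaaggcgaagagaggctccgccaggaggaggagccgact

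The motif commonly given for LRH-1, CAAGGTCA, and its looser form CAAGGNCA were searched on both strands. Neither is in these 250 bases, whereas 1.33% and 5.53% of 32851 windows of the same length hold them. CAAGGT is the first part of CAAGGTCA, so any full match also contains it, and it was searched after the sequence had been seen. It occurs 3 times, all on the strand of the gene, starting 166, 89 and 81 bases before the start. A window with 1 match or more is found in 10.9% of all windows and one with 3 or more in 0.0426%, which is 14 windows. These matches are letters and were not tested for binding. Promoter windows were available for 6 of the 10 members, 8 windows in all, and the other member with a match was Car14, with 1 CAAGGNCA.

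Car4 was the carbonic anhydrase that separated the genotypes. Its log2 intensity was lowest at 10.91, with a median of 11.17 and a highest value of 11.46, in K289R jejunum, against 11.71, 11.91 and 12.32 in WT jejunum. All 7 K289R arrays lay below the lowest WT array, so the groups did not overlap. The means were 11.23 ± 0.21 in K289R and 11.94 ± 0.20 in WT (SD, n = 7 each). The difference was −0.72 (SE 0.098, 95% interval −0.92 to −0.51), a fold of 0.609. This is the value for which the gene was chosen, and it is given without a test.

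**Figure D1:**
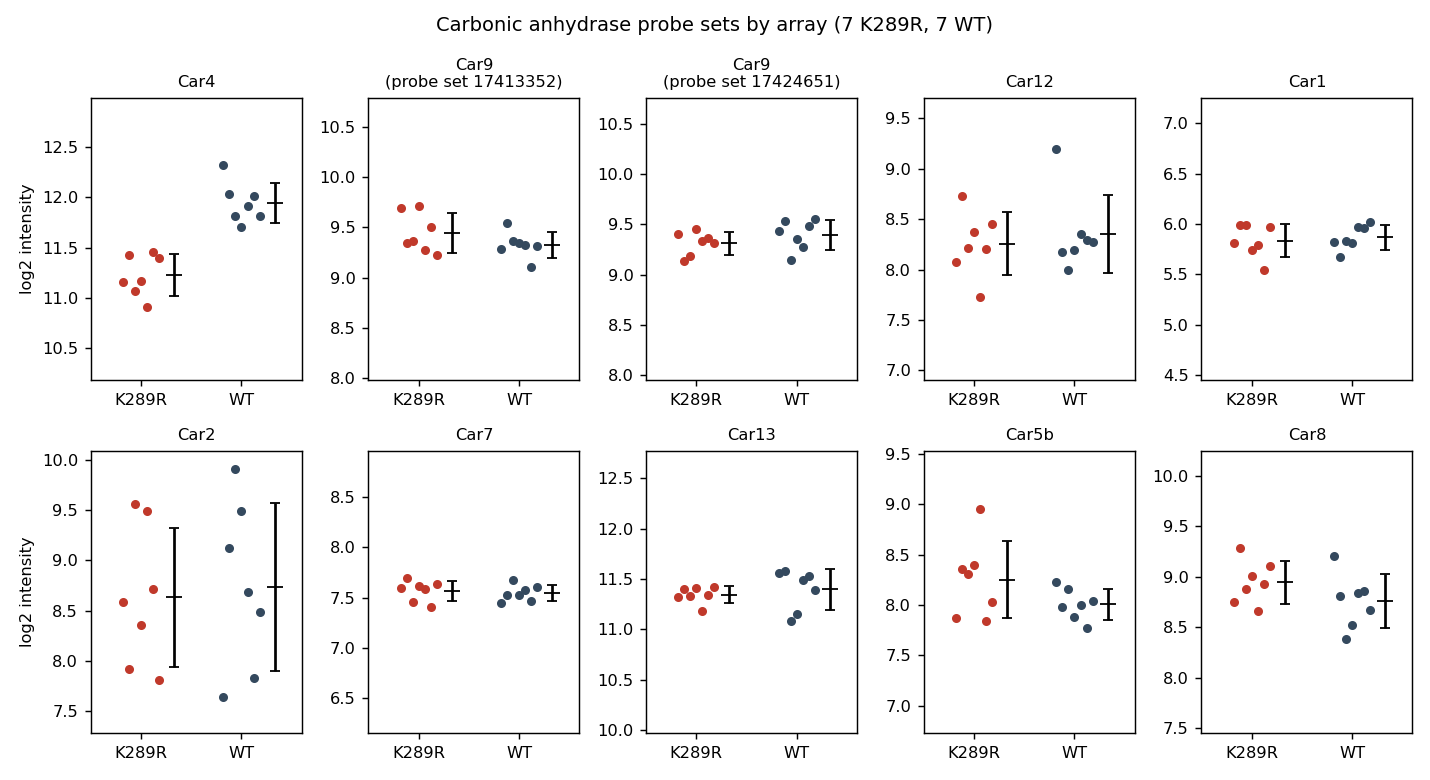
Log2 intensity of the 10 carbonic anhydrase probe sets on every array, K289R to the left of WT, with 1 point per mouse and the mean with SD beside each group (n = 7). Each panel spans the same range on the log2 scale. The Car4 points of K289R, 10.91 to 11.46, all lie below those of WT, 11.71 to 12.32, and the groups overlap in every other panel.

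In limma's fit across all genes, 1 of the 8 members past the filter on dim genes had an adjusted p under 0.05, and this was Car4, while 0.0444% of all genes tested did. In 1 of the 8 the groups did not overlap, again Car4, beside 0.167% of all genes. Since Car4 was picked from this contrast, nothing is read from either count. Of the 8 differences 4 were above 0 and 4 below, and over all genes the median difference was −0.0039, with 52.0% of genes lower in K289R.

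The size of the Car4 difference varied little with the arrays used. It ran from −0.76 without WT replicate 4 to −0.65 without WT replicate 1 over the 14 fits that each left out 1 array, and was −0.70 (SE 0.095) without the 4 arrays with Fabp6 signal. Of the 12 smooth muscle genes 10 had a higher mean in K289R, 0 passed limma's adjusted threshold, 7 had an unadjusted p under 0.05 (8.48% of all genes tested had one), their median difference was 0.21, and their summed intensity was 21955 to 31324 in K289R and 22859 to 25596 in WT. With the mean of that list as a covariate the Car4 difference was −0.70 with a larger SE of 0.125, a fit in which 0 members were called. Of the 10 fibroblast and matrix genes 9 had a higher mean in K289R, 0 passed and 5 had an unadjusted p under 0.05, with a median of 0.20 and summed intensities of 13146 to 17042 in K289R and 12022 to 14324 in WT. All 11 blood endothelium genes had a higher mean in K289R, 0 passed and 0 had an unadjusted p under 0.05, with a median of 0.13 and sums of 2993 to 5336 in K289R and 3058 to 5468 in WT. The part of these 2 lists in the Car4 difference was not tested. In bulk tissue, fewer cells that express Car4 and less Car4 RNA per cell cannot be told apart.

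The membrane-spanning isoforms showed smaller differences. Car9, which is known as a target of the hypoxia-inducible factors, had 2 probe sets that pointed in opposite directions. On probe set 17413352 its level was 9.23, 9.36 and 9.71 (lowest, median and highest) in K289R and 9.10, 9.32 and 9.54 in WT, with a difference of 0.12 (SE 0.082, 95% interval −0.05 to 0.29). On probe set 17424651 it was 9.13, 9.33 and 9.46 in K289R and 9.14, 9.43 and 9.56 in WT, with a difference of −0.09 (SE 0.070, 95% interval −0.23 to 0.06). The groups overlapped on both, so no common direction can be given for Car9. Of 12 tested hypoxia response genes, 6 were higher and 6 lower in K289R, 0 passed limma's adjusted threshold, 0 had an unadjusted p under 0.05 (against the same 8.48%), and Vegfa was at −0.14 (SE 0.093).

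Car12, an isoform of secretory epithelia, had a wide spread in both genotypes. Its level was 7.73, 8.21 and 8.73 (lowest, median and highest) in K289R and 7.99, 8.27 and 9.19 in WT. The groups overlapped nearly throughout, and the highest WT value, on replicate 1, stood far above the other WT arrays. The difference was −0.10 (SE 0.163, 95% interval −0.44 to 0.25), and 0.04 (SE 0.120) without WT replicate 1. With list means as covariates it was −0.07 (SE 0.089, distal small intestine) and −0.01 (SE 0.134, mature and villus tip enterocyte). With the proximal small intestine list, a fit added after seeing the data, it was −0.29 (SE 0.111). Car12 was not called in any of these fits.

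Of the 9 measured members, the cytosolic Car2 had the widest range within each genotype. This highly active enzyme of red cells and many epithelia was at 7.82, 8.58 and 9.56 in K289R (lowest, median and highest) and at 7.65, 8.68 and 9.91 in WT. The groups covered almost the same range. The difference of −0.10 carried an SE of 0.347 and a 95% interval of −0.84 to 0.63, so a change of either sign and of considerable size is within the interval. Its sign turned to 0.35 (SE 0.190) with the mean of proximal small intestine genes as a covariate, a fit added after seeing the data. That list includes Onecut2, whose r with Car2 was 0.98 in both genotypes, so the covariate in part follows Car2 itself.

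Car13, a cytosolic isoform of the gut epithelium, was steady by comparison. It ran from 11.18 to 11.42 in K289R, with a median of 11.35, and from 11.08 to 11.58 in WT, with a median of 11.49. The difference was −0.05 (SE 0.078, 95% interval −0.22 to 0.11), and over the fits without 1 array it ran from −0.11 without WT replicate 3 to −0.025 without WT replicate 2. With list means as covariates it was −0.05 (SE 0.070, distal small intestine) and −0.01 (SE 0.064, mature and villus tip enterocyte). With the proximal small intestine list, a fit added after seeing the data, it was −0.13 (SE 0.063). Car13 was not called in any of these fits. The SD was 0.081 in K289R and 0.20 in WT, a contrast of spreads that was not tested.

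Car7, a cytosolic isoform best known from brain, lay between 7.41 and 7.69 in K289R and between 7.45 and 7.68 in WT, a difference of 0.02 (SE 0.054, 95% interval −0.09 to 0.13). Car1, a major protein of red cells and also of colon epithelium, was the member below the filter on dim genes. It ran from 5.54 to 6.00 in K289R and from 5.67 to 6.02 in WT, and differed by −0.03 (SE 0.075), from the fit of every probe set with no filter. The groups overlapped for both genes. The red cell list, of which 4 genes were tested (Epb42, Slc4a1, Epor and Klf1, with no globin gene among them), had summed intensities of 597 to 712 in K289R and 606 to 679 in WT.

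Car5b, the mitochondrial isoform, had a higher mean in K289R, with overlapping groups. Its level was 7.85, 8.31 and 8.95 in K289R (lowest, median and highest) and 7.77, 8.002 and 8.22 in WT. The highest K289R value was on replicate 5, and 5 of 7 K289R arrays were above the WT mean. The difference was 0.24 (SE 0.136, 95% interval −0.04 to 0.53) with all arrays and 0.13 without K289R replicate 5. That array also had the highest Car3 level, 12.16, against 10.10 to 11.63 on the other K289R arrays, Car3 being an abundant protein of fat and muscle. Of the 7 adipocyte genes tested, 6 had a higher mean in K289R and 0 passed. Their summed intensity was 3718 to 8676 in K289R and 4061 to 6017 in WT, and their part in the Car5b difference was not tested.

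Car8, the member without catalytic activity, had levels of 8.66, 8.93 and 9.29 in K289R (lowest, median and highest) and 8.38, 8.81 and 9.21 in WT. The groups overlapped, with 5 of 7 K289R arrays above the WT mean. The difference was 0.19 (SE 0.114, 95% interval −0.05 to 0.43). With list means as covariates it was 0.21 (SE 0.069, distal small intestine), 0.26 (SE 0.091, mature and villus tip enterocyte) and 0.05 (SE 0.067, proximal small intestine, a fit added after seeing the data). Car8 passed limma's adjusted threshold in none of these fits.

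**Figure D2:**
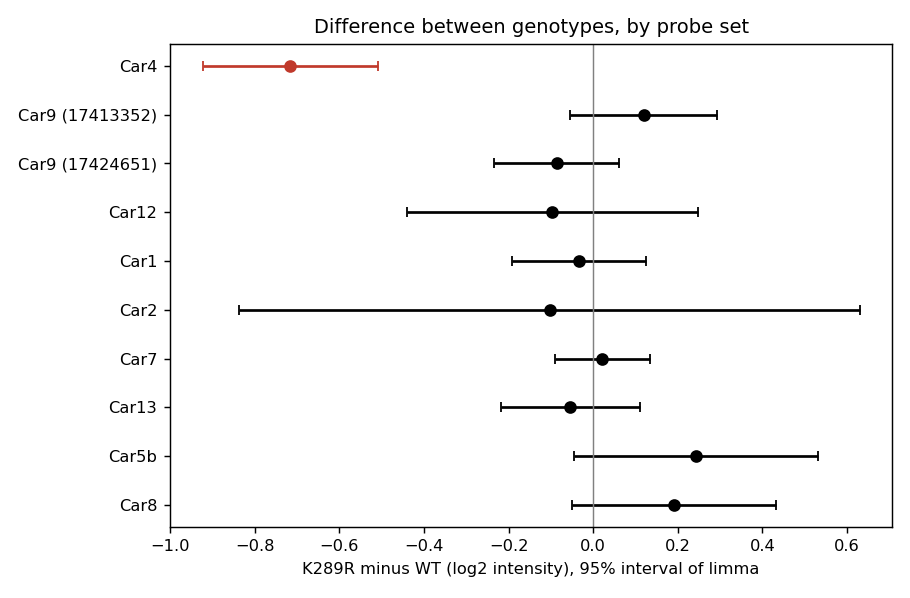
Difference between genotypes (K289R minus WT, log2 intensity) for each carbonic anhydrase probe set, with limma's 95% interval. The Car4 interval runs from −0.92 to −0.51, the other intervals include 0, and the widest is that of Car2, −0.84 to 0.63. The genes were chosen with this contrast known, so the intervals are a description and not a test.

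Family genes outside the member list were Car3, Car6, Car10, Car11 and Car15, with Car6 below the filter on dim genes. Of the 4 tested, 0 passed limma's adjusted threshold and 0 had an unadjusted p under 0.05. Car15 was at −0.11 (SE 0.058), Car3 at 0.32 (SE 0.258), Car11 at 0.03 (SE 0.059) and Car10 at −0.03 (SE 0.056).

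Among mice of the same genotype, 5 family members, picked after their values were seen, varied together or inversely. The family list of 10 genes was not chosen by variation within a genotype. These 5 were picked from it by their values, so their r is a description. The 4 lowest Car2 arrays of the series, K289R replicates 7 and 2 with 7.82 and 7.92 and WT replicates 1 and 6 with 7.65 and 7.83, were the 4 arrays with Fabp6 above 8. On the other 10 arrays Car2 was between 8.36 and 9.91. Without the 4 arrays the genotype differences were −0.20 (SE 0.285) for Car2, 0.20 (SE 0.096) for Car8, −0.08 (SE 0.109) for Car12 and −0.02 (SE 0.094) for Car13. The choice of Car2, Car4, Car8, Car12 and Car13 for this account came from their values. Car2 had r between −0.80 and −0.77 with the other 4 in K289R and between −0.88 and −0.73 in WT. Among Car4, Car8, Car12 and Car13 the 6 values of r ran from 0.74 to 0.97 in K289R and from 0.53 to 0.91 in WT, the lowest being Car12 with Car13 (exact permutation p = 0.229). Without the 2 arrays farthest from the first gene's median, the 6 values reached down to 0.28 in WT, and without the arrays with Fabp6 signal down to 0.15, for Car4 with Car12. In the same settings r of Car2 with Car4 was −0.31 and −0.61 in K289R and −0.51 and −0.30 in WT.

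**Figure D3:**
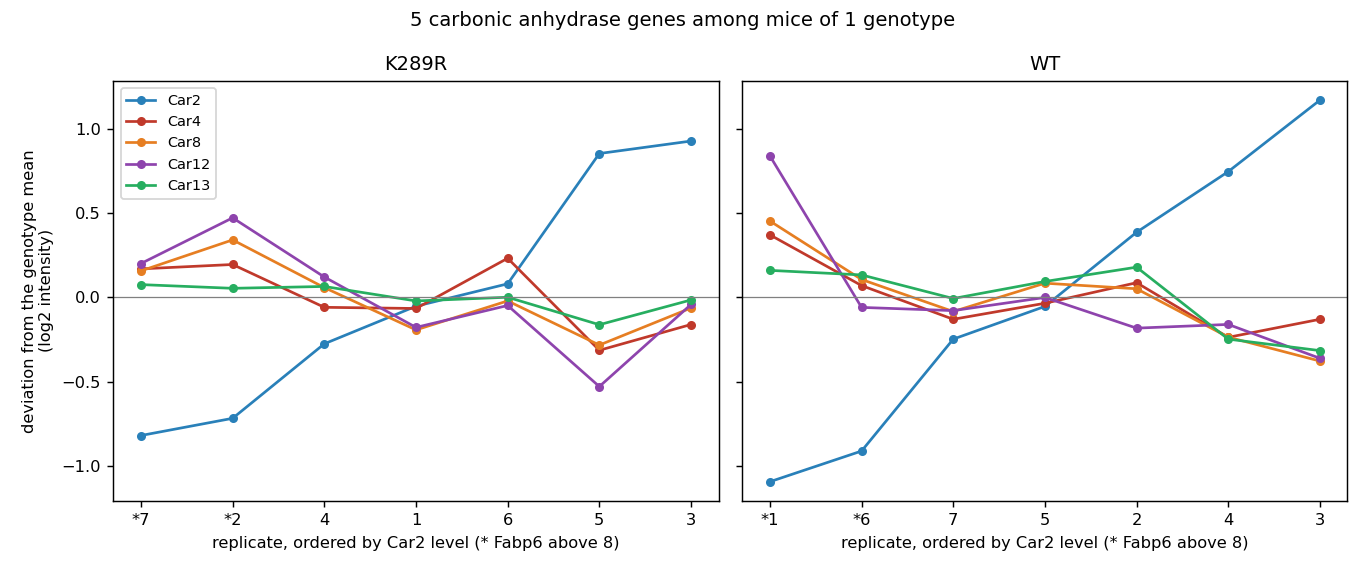
Deviation of Car2, Car4, Car8, Car12 and Car13 from their genotype mean (log2 intensity), K289R left and WT right, with the 7 arrays of each genotype ordered by Car2. Stars mark the 4 arrays with a Fabp6 level above 8, which hold the lowest Car2 values, 7.65 to 7.92. The other genes are mostly above their mean where Car2 is low and below it where Car2 is high.

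Pearson's r was computed for 36 pairs of the 9 measured genes in each genotype, 72 relations over 7 arrays each, with an exact 2-sided permutation test over all pairings. After Benjamini-Hochberg adjustment 0 of the 72 were past 0.05, and 18 had an unadjusted p under 0.05, as did 16 by Spearman's rho. The share among pairs of other genes is not given, so nothing about the family is read from these counts. The closest pair was Car8 with Car12, with r = 0.97 and rho = 0.96 in K289R (exact permutation p = 0.000794 for r and 0.00278 for rho, adjusted 0.0571 and 0.171). In WT the same pair had r = 0.87 and rho = 0.86 (exact permutation p = 0.00437 and 0.0238, adjusted 0.0857 and 0.171). Without the 2 arrays farthest from the Car8 median it had r = 0.98 in K289R and 0.49 in WT. Leaving out such arrays also narrows the range of Car8, so the lower WT value cannot show that the relation rests on them.

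Car4 was positively related to Car8 in both genotypes. The value of r was 0.76 in K289R and 0.91 in WT, with rho of 0.75 and 0.86 in the same order (exact permutation p for r = 0.0450 and 0.00694, adjusted 0.193 and 0.1, and for rho 0.0663 and 0.0238). Without the 2 farthest arrays r was 0.84 in K289R and 0.75 in WT. Car2 and Car8 were inversely related, with r = −0.78 and rho = −0.79 in K289R and r = −0.88 and rho = −0.89 in WT (exact permutation p for r = 0.0379 and 0.00992, adjusted 0.193 and 0.119, and for rho 0.0480 and 0.0123). Without the 2 arrays farthest from the Car2 median, r was −0.82 in K289R and −0.66 in WT. None of these relations passed the adjustment over 72.

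Without the arrays with Fabp6 signal 5 arrays were left in each genotype, a setting added after seeing the data, and r is given as a value with no test. It was 0.95 in K289R and 0.79 in WT for Car8 with Car12, 0.61 and 0.71 in the same order for Car4 with Car8, and −0.51 and −0.79 for Car2 with Car8.

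The genes whose levels were most like those of each member were found as those with the highest value of the smaller of the 2 within-genotype correlations, over 7 K289R and 7 WT arrays. They were picked from all genes tested for being the highest, so no p is given. For Car2 they were Ckb, the brain-type creatine kinase (r = 0.98 in both genotypes), Onecut2, a transcription factor of the proximal gut (0.98 in both), and Atp8a1, a phospholipid flippase gene (0.97 in both). Onecut2 was 7.34 and 7.55 on K289R replicates 2 and 7 and 7.43 and 7.80 on WT replicates 1 and 6, and reached 9.09 on K289R replicate 3 and 9.495 on WT replicate 3, which also held the highest Car2 of their genotypes. Without the arrays with Fabp6 signal the r of Car2 with Onecut2 was 0.99 in K289R and 0.93 in WT. In the same order it was 0.98 and 0.99 for Ckb and 0.97 and 0.93 for Atp8a1.

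Car12 was most like Cftr, the chloride and bicarbonate channel, with r = 0.96 in K289R and 0.95 in WT, followed by Sgpp1, a sphingosine-1-phosphate phosphatase gene (0.94 in both), and Cldn2, a pore-forming claudin (0.91 in K289R and 0.96 in WT). Car8 was most like Rell1, Hsd11b2, which inactivates glucocorticoids, and Mpzl1, all with r of 0.92 or more in both genotypes. Car13 was most like Gm17783, Ica1 and Pde8b, a cyclic AMP phosphodiesterase gene, with r between 0.94 and 0.98. Car5b was most like Ccdc80, Scd1, the stearoyl-CoA desaturase, and Abcd2, a peroxisomal fatty acid transporter, with r between 0.84 and 0.92. For Car7 the genes were Abcb4, Egfl6 and Actb, and for Car9 Polr1d, Atg16l1 and Zfp598, with r between 0.84 and 0.93 for these 6. With the arrays with Fabp6 signal left out, r in K289R was 0.81 or more for each gene of this paragraph with its member. In WT it was 0.37 for Sgpp1, 0.34 for Scd1, 0.69 for Actb, 0.77 for Cldn2 and 0.78 for Abcd2. For the others it was 0.81 or more in WT.

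For Car4 the most alike genes within genotypes were Fgfbp1, a carrier of fibroblast growth factors (r = 0.92 in K289R and 0.95 in WT), 1810065E05Rik (0.96 and 0.92), Gmds, a GDP-fucose synthesis enzyme (0.90 and 0.94), Pglyrp1, a peptidoglycan recognition protein (0.92 and 0.89), and Gsr, glutathione reductase (0.88 and 0.92). With the arrays with Fabp6 signal left out, r in WT was 0.83 for Fgfbp1, 0.60 for 1810065E05Rik and 0.76 for Gmds. It was 0.67 for Pglyrp1 and 0.77 for Gsr in WT, and 0.88 to 0.94 for these 5 in K289R. Fgfbp1 levels ran from 7.42 to 8.45 in K289R and from 7.69 to 8.99 in WT, so the groups overlapped widely, unlike those of Car4. The genotype differences of these genes were 0.01 (SE 0.190) for Fgfbp1, −0.01 (SE 0.190) for 1810065E05Rik, −0.08 (SE 0.085) for Gmds, −0.04 (SE 0.153) for Pglyrp1 and 0.09 (SE 0.097) for Gsr. None of the 5 passed limma's test, with adjusted p values from 0.789 to 0.996.

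Most unlike Car4 were Cd36, a fatty acid transporter of the proximal gut (r = −0.97 in K289R and −0.94 in WT), Asah2, the neutral ceramidase of the brush border (−0.922 and −0.996), and Plpp1, a lipid phosphatase gene (−0.88 and −0.93). Leaving out the arrays with Fabp6 signal gave −0.95 and −0.75 (K289R, then WT) for Cd36. It gave −0.89 and −0.99 for Asah2 and −0.85 and −0.70 for Plpp1. The genotype differences of these genes were 0.13 (SE 0.183), 0.02 (SE 0.055) and 0.02 (SE 0.079), and none passed (limma adjusted p from 0.854 to 0.942).

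The genes beside Car4 on chromosome 11 showed small differences. In the gene order of assembly GRCm38.p6, the tested genes on one side were Znhit3, Myo19, an unconventional myosin of mitochondria, Pigw, Ggnbp2 and 4930502E09Rik, and on the other Usp32, a deubiquitinase gene, 1700125H20Rik, Appbp2, Appbp2os and Ppm1d. Of these 10, 0 passed limma's adjusted threshold and 2 had an unadjusted p under 0.05, Myo19 with −0.16 (SE 0.055, adjusted p = 0.436) and Usp32 with 0.17 (SE 0.061, adjusted p = 0.449). The other 8 lay between −0.10 and 0.13. The name of Appbp2os marks it as the opposite strand of Appbp2, and whether the signals of their probe sets are independent was not tested.

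**Figure D4:**
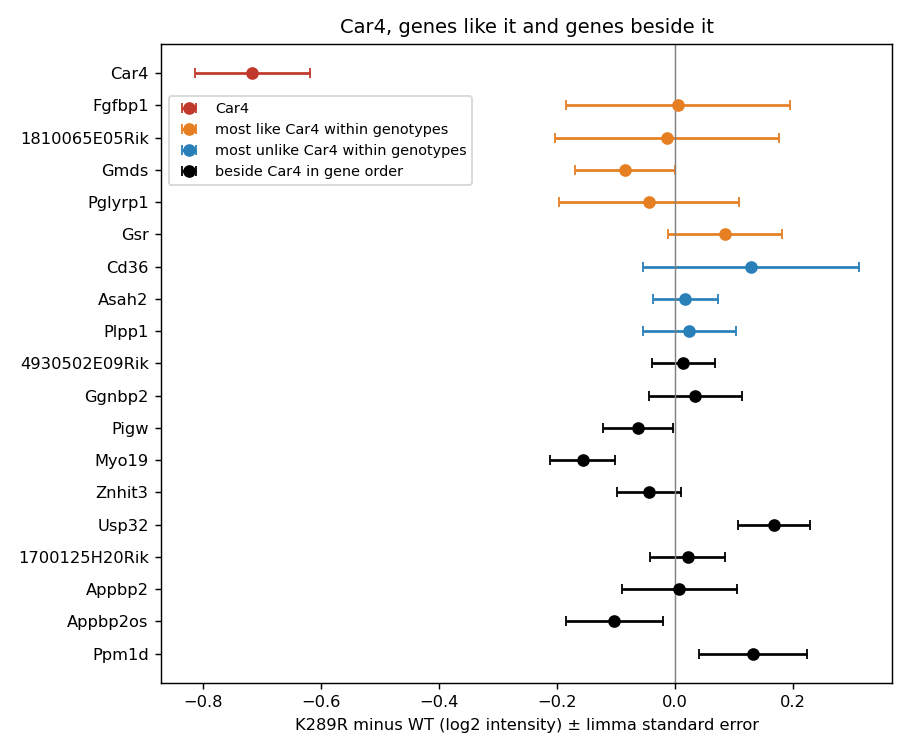
Genotype difference (K289R minus WT, log2 intensity, with limma's standard error) of Car4, of the 5 genes most like it and the 3 most unlike it within genotypes, and of the 5 tested genes on each side of it in gene order. Car4 stands at −0.72 and the other 18 lie between −0.16 and 0.17.

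Car4 levels were set against the means of 20 gene lists in each genotype, 40 relations over 7 arrays each. By Pearson's r 3 of the 40 had an adjusted p under 0.05 and 8 an unadjusted one, and by Spearman's rho 0 and 7. Within a genotype, Car4 was lower on arrays with higher proximal small intestine genes. In K289R, r was −0.81 and rho −0.71 (exact permutation p = 0.0319 and 0.0881, adjusted 0.160 and 0.294), and r was −0.82 without the 2 arrays farthest from the median of the list. In WT, r was −0.97 and rho −0.96 (exact permutation p = 0.000992 and 0.00278, adjusted 0.0185 and 0.0556), and r was −0.95 without 2 arrays. Without the arrays with Fabp6 signal r was −0.73 in K289R and −0.95 in WT. Of the 10 proximal genes 7 were lower and 3 higher in K289R, 0 passed and 2 had an unadjusted p under 0.05 (8.48% of all genes tested had one). Their median difference was −0.13, beside −0.0039 over all genes. Their summed intensity was 15501 to 23855 in K289R and 12536 to 25854 in WT. With the mean of this list as a covariate, added after seeing the data, the Car4 difference was −0.84 (SE 0.060).

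Each relation past the adjusted threshold passed it in 1 genotype only, the proximal one in WT, and the difference between genotypes was not tested. The others were Paneth cell genes, past it in K289R, and tuft cell genes, past it in WT. For both lists r had the same sign in the 2 genotypes. With Paneth cell genes, r was 0.97 in K289R (exact permutation p = 0.000397, adjusted 0.0159, rho 0.96, exact p = 0.00278) and 0.67 in WT (exact permutation p = 0.0988, adjusted 0.310, rho 0.68, exact p = 0.110). With tuft cell genes, r was −0.61 in K289R (exact permutation p = 0.174, adjusted 0.348, rho −0.64, exact p = 0.139) and −0.94 in WT (exact permutation p = 0.00139, adjusted 0.0185, rho −0.93, exact p = 0.00675). Leaving out the 2 farthest arrays gave 0.98 in K289R and 0.58 in WT for Paneth cells, and −0.36 in K289R and −0.90 in WT for tuft cells. Without the arrays with Fabp6 signal r was 0.96 in K289R and 0.68 in WT for Paneth cells, and −0.58 in K289R and −0.90 in WT for tuft cells. Paneth cell genes summed to 52551 to 61977 in K289R and 46768 to 61717 in WT, and tuft cell genes to 1822 to 2110 in K289R and 1749 to 2186 in WT.

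Car4 also ran against the mature and villus tip enterocyte genes, with r = −0.75 and rho = −0.71 in K289R and r = −0.84 and rho = −0.79 in WT (exact permutation p for r = 0.0264 and 0.0125, adjusted 0.151 and 0.1, for rho 0.0881 and 0.0480). Without the 2 farthest arrays r was −0.27 in K289R and −0.86 in WT. Leaving out such arrays also narrows the range of the list mean, so the weaker K289R value cannot show that the relation rests on them. Without the arrays with Fabp6 signal r was −0.76 in K289R and −0.83 in WT. Of these 18 genes 10 were higher and 8 lower in K289R, 0 passed and 2 had an unadjusted p under 0.05, Egfr and Slc7a9. Their median difference was 0.005 over the 18 genes, whose summed intensity was 135724 to 154931 in K289R and 132419 to 146759 in WT. Egfr differed by 0.22 (SE 0.079) and Slc7a9, a cystine transporter gene, by −0.14 (SE 0.060), at limma adjusted p values of 0.436 and 0.537. With the list mean as a covariate the Car4 difference was −0.65 (SE 0.072). The remaining relations with an unadjusted p under 0.05 were both in WT. For enteroendocrine cell genes r was −0.91 (exact permutation p = 0.00853, adjusted 0.0853), and −0.61 in K289R. For distal small intestine genes r was 0.88 (exact permutation p = 0.0181, adjusted 0.120), and 0.64 in K289R. Without the arrays with Fabp6 signal the distal r was 0.31 in WT and 0.30 in K289R. Fabp6 is in that list, so this also narrows its range.

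**Figure D5:**
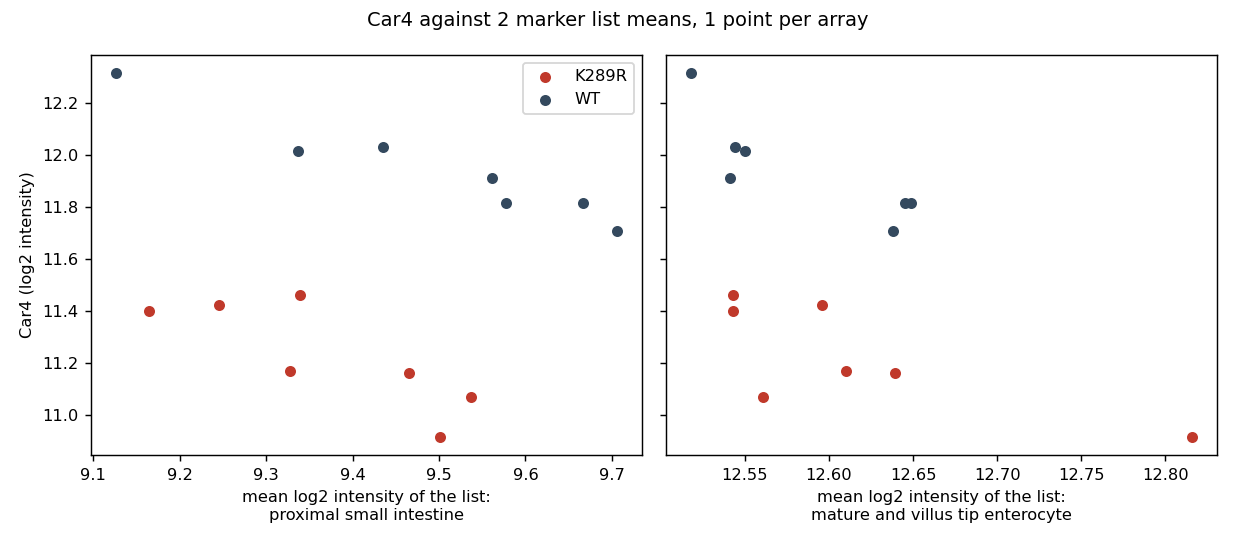
Car4 log2 intensity against the mean log2 intensity of the proximal small intestine list (left) and of the mature and villus tip enterocyte list (right), with 1 point per array, K289R in red and WT in dark blue. Within each genotype r of Car4 with both list means is negative, but −0.27 for the right list in K289R without the 2 farthest arrays. All K289R points, 10.91 to 11.46, lie below all WT points, 11.71 to 12.32. Car4 was chosen for this contrast, which would look the same against any list.

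The transporters that use the products of carbonic anhydrases showed no called difference. Of 18 tested genes for bicarbonate, proton and lactate transport, 6 were higher and 12 lower in K289R, 0 passed limma's adjusted threshold and 0 had an unadjusted p under 0.05, with a median of −0.03 beside −0.0039 over all genes. Cftr was at 10.53 ± 0.26 in K289R and 10.73 ± 0.17 in WT (SD, n = 7 each), a difference of −0.19 (SE 0.105, 95% interval −0.42 to 0.03). The bicarbonate cotransporter gene Slc4a5 was at −0.32 (SE 0.197), Slc26a6, an apical chloride and bicarbonate exchanger, at −0.13 (SE 0.084), the exchanger Slc4a2 at −0.08 (SE 0.059), Bsg, the chaperone of lactate transporters, at −0.06 (SE 0.038) and Slc9a3r1, the scaffold of the sodium and proton exchanger, at −0.08 (SE 0.058). The 18 differences ran from −0.32 to 0.13.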

How the data were processed

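Total RNA was isolated with Trizol, amplified and labelled with biotin for 1 array per mouse, per the labels' protocols. Affymetrix Expression Console made the deposited values, per the submitters' processing notes. Version, background correction and normalization were not given in the sources used here. Intensities on a linear scale for 41345 probe sets, 7.40 to 20050.3, were deposited. The near-equal array medians are what values already brought to 1 scale would have, but that step is not stated. If it was done, any global shift was removed. Values were log2-transformed.

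Names came from the platform's annotation table, where 23521 probe sets had 1 symbol, 1814 several and 16010 none here. A gene was its probe set with the highest mean. Genes whose mean was under log2 6.25, the percentile 25 over every probe set, were left out, which leaves 18010. Differences were fitted with limma 3.58.1 in R 4.3.3 (lmFit, eBayes, 2-sided, no covariate) and Benjamini-Hochberg adjusted over all genes tested, with a threshold of 0.05. Within-genotype correlations had exact permutation tests over all pairings (numpy 2.4.6, scipy 1.17.1), the smallest possible p being 0.000198. The steps were tested on simulated data. The number of arrays limits the precision.

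Named genes are the members, the 5 tested genes on each side of Car4, those most like or unlike a member, and up to 6 transporter genes and 3 genes of other lists with the smallest p. Fabp6, Alpi, Vil1 and Apoa4 are named outside that rule, after values were seen. The members and lists were chosen with earlier results of these data known. Same-numbered arrays were not treated as pairs. Their deviations from the group means correlated with r from −0.15 to 0.17, which cannot show whether those mice were related or handled together. The labels name the samples biological replicates without saying which mice shared a litter or cage. Alternatives changed the normalization, the filter, the probe sets of a gene, the variance model, array weights, a replicate block, list means as covariates, the arrays used and the threshold.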

Additional observations from a re-analysis of the deposited data

Results flagged for a closer look

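Within the groups of 7 arrays, 2 values of member probe sets stood apart from the rest of their group, with a gap to the next array, as a share of the group's range, above Dixon's critical value for 7 samples. Chance gives such a gap in about 1 of 20 groups, and 20 groups were looked at. Car12 was at 9.19 on WT replicate 1, with a gap of 0.699 of the WT range, and this array also had the highest Fabp6 level, 12.52. Car13 was at 11.18 on K289R replicate 5, with a gap of 0.592 of the K289R range, and this array also had the lowest Car4 level, 10.91.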

How the results depend on the processing

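Car4 was chosen on this contrast, so its calls support nothing, and its values are a description. The Car4 difference lay between −0.84 (proximal covariate) and −0.65 (array weights), and from −0.76 to −0.65 over the fits without 1 array. It was −0.70 with the smooth muscle covariate and −0.72 with the replicate number as a block, with 0 members called in both. The replicate block left 0 genes called of 18010, beside 8 without it, and no K289R array correlated best with the WT array of its own number. Leaving out 1 array gave 1 member called in each fit and 4 to 14 genes over all: 4 without K289R replicate 4, WT replicate 3 or WT replicate 4, 5 without K289R replicate 7 and 14 without K289R replicate 5. Other counts over all genes were 14 with array weights, 23 with the villus tip covariate, 4 with the proximal covariate (chosen after seeing the data), 5 without the 4 arrays with Fabp6 signal and 18 at a threshold of 0.1.

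Among members that were never called, signs turned for Car9 on its second probe set (−0.086), for Car2 with the smooth muscle covariate (0.13), with the proximal covariate (0.35) and without K289R replicates 2 (0.02) or 7 (0.03) or WT replicates 3 (0.092) or 4 (0.02), for Car7 with the smooth muscle covariate (−0.025) and without the Fabp6 arrays (−0.051), and for Car12 without WT replicate 1 (0.044). Over fits without 1 array Car2 ran from −0.29 to 0.092 and Car12 from −0.18 to 0.044. Of the 72 pairs 1 passed after quantile normalization, Car8 with Car12 in K289R (adjusted p = 0.0286). Of the 40 list relations 0 passed with Spearman's rho. Without the 2 farthest arrays 0 passed, but with 5 arrays the smallest exact p is 0.00833 and 7 of the 40 would have to reach it at once, so this count says nothing about stability. Causes were not tested. Car1 lay below the filter on dim genes.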
